A study of Homo sapiens with 64 samples.

Results

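SUDHL2 and SUDHL6 are human B-cell lymphoma lines, and their untreated cells were compared here. The members are the 6 arrays of 64 that carry the untreated label for these lines in the experiments with a BET inhibitor, 3 arrays of SUDHL2 and 3 of SUDHL6. The genes tested were those detected on at least 3 of the 42 arrays of these lines, treated arrays included. The remaining arrays are the same lines after DMSO, the solvent, or after OTX015, an inhibitor of the BET bromodomain proteins, for 1, 2 or 12 h, and a panel of untreated lymphoma lines with 1 array each. Neither group compared here received DMSO or OTX015, and the labels give no genetic change made to either line. Each line stands for a single cell line, so a difference between them belongs to these lines and not to a class of lymphoma. Whether the 3 arrays of a line come from separate cultures is not stated in the labels. The p-values therefore cover only the variation among the arrays at hand, which may be technical, and their number limits the precision.

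Diffuse large B-cell lymphomas are divided by the stage of B-cell development that their expression resembles. In the germinal centre type, genes of the dividing germinal centre B cell such as MME and BCL6 are active. In the activated B-cell type, chronic NF-kB signalling goes with IRF4 and with parts of the programme that turns a B cell into a plasma cell. SU-DHL-2 is known as a line of the activated type with a mutant MYD88, the adaptor of Toll-like receptors. SU-DHL-6 is known as a line of the germinal centre type with a mutant EZH2, the histone methyltransferase of Polycomb, and with a translocation that joins BCL2 to the immunoglobulin heavy chain locus.

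The 6 arrays had median signals of 97.2 to 114.1 and 37.63 to 41.14% of their probes detected. Levels below are log2 normalised intensities, and a difference is SUDHL2 minus SUDHL6 on that scale, so that a positive value means higher in SUDHL2. Replicate arrays correlated at 0.995 in SUDHL2 and 0.989 to 0.993 in SUDHL6, and arrays of different lines at 0.881 to 0.885. The single panel arrays labelled SU-DHL-2 and SU-DHL-6 were each most alike an untreated array of their own line among 27 other untreated arrays. The SUDHL2 arrays lay on slide 6 (replicate 1) and slide 3 (replicates 2 and 3), and the SUDHL6 arrays on slide 2 (replicates 1 and 2) and slide 6 (replicate 3), so slide and line are partly confounded. Of the 13393 genes tested, 858 were detected in neither untreated line. With limma, 3619 were higher and 3407 lower in SUDHL2 at an adjusted p under 0.05, which is 52.5% of genes called (27% higher and 25.4% lower). With a difference of at least 2-fold as well, 1318 genes (9.84%) were higher and 1170 (8.74%) lower, 18.6% in all. In 61.7% of all genes the arrays of the lines did not overlap. The median difference over all genes was 0.01 and the median size of a difference 0.38. Among called genes, 504 were detected on all SUDHL2 arrays and no SUDHL6 array, and 356 the other way round. For these the fold is a lower bound, set against the lowest signal of a detected probe where the gene's own value lay below it, and is written "at least". Of the called genes named below, the dimmer line detected BCL2A1, BNIP3, CD44, PHGDH and TCF4 on 1 of its 3 arrays, and BCL10, BCL2, COBLL1, GPR183, IFITM1, IL2RB, JUN, S100A4, TNFRSF13C and TPM2 on 2 of 3.

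The genes that separate the cell-of-origin types separated the lines. Lymph2Cx is a published expression classifier whose genes mark the activated type, the germinal centre type or neither. All 7 tested Lymph2Cx genes of the activated type were higher in SUDHL2 (median difference 2.20), and all 5 tested genes of the germinal centre type were lower (median -2.53). With slide as a fixed block, 4 of these 5 were called lower and 7 of 7 activated genes higher. Of its 5 reference genes, 3 were not called, and UBXN4 (-1.36) and R3HDM1 (-0.85) were lower. CYB5R2, a reductase of the activated set, read 11.84, 11.77 and 11.79 on the SUDHL2 arrays and 6.61, 6.57 and 6.62 on the SUDHL6 arrays. Every SUDHL2 array was far above every SUDHL6 array, a 36.7-fold difference (5.2 ± 0.18 SE, limma adjusted p = 3e-26). MME, the surface enzyme CD10 of germinal centre B cells, read 4.41, 4.68 and 4.03 in SUDHL2 and 8.78, 8.72 and 8.52 in SUDHL6. It was below detection on all arrays of SUDHL2 and clearly present on all of SUDHL6, at least 10.1-fold lower in SUDHL2 (adjusted p = 4.4e-24). IRF4, the transcription factor that drives plasma cell differentiation, read 9.13, 9.21 and 9.23 against 7.92, 7.89 and 7.87. The arrays did not overlap, but the gap was small beside that of CYB5R2 (1.30 ± 0.20, 2.46-fold, adjusted p = 3.4e-07). LIMD1, MAML3 and S1PR2 of the same classifier were not detected.

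**Figure D1:**
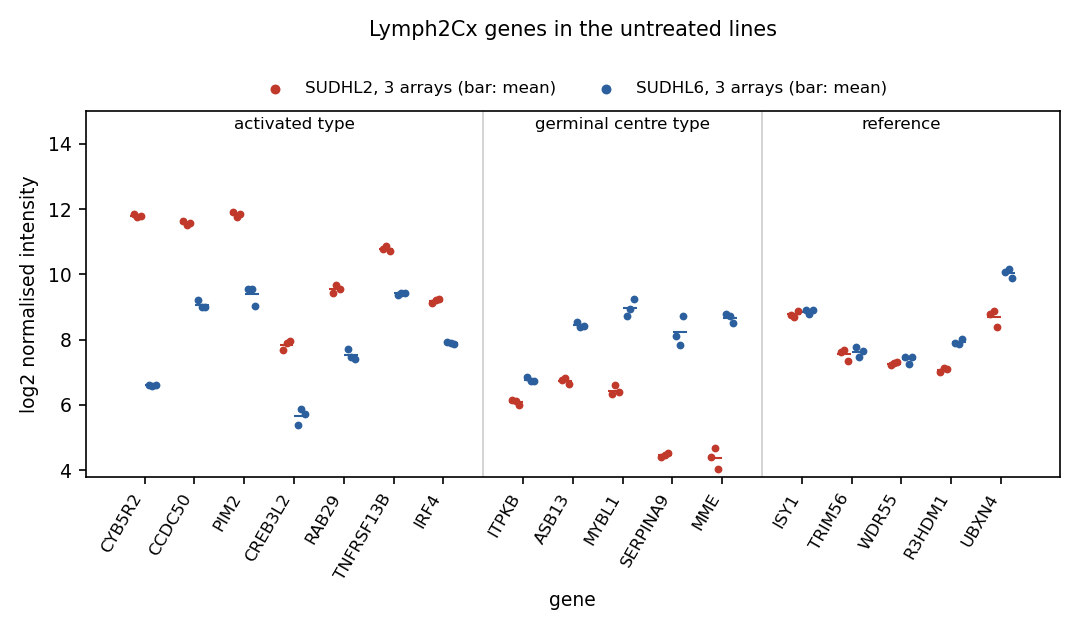
Log2 normalised intensity of the tested Lymph2Cx genes on the 3 untreated SUDHL2 arrays (red) and the 3 untreated SUDHL6 arrays (blue), with a bar at each mean. Genes of the activated type lie higher in SUDHL2 and genes of the germinal centre type lower, CYB5R2 (5.2) and MME (-4.30) having the widest gaps of their sets.

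A longer list of germinal centre genes gave the same picture with exceptions. Of 17 tested, 14 were lower and 3 higher in SUDHL2 (median -1.46). CD38, an ectoenzyme of germinal centre and plasma cells, was detected only in SUDHL6 and was at least 21.6-fold lower in SUDHL2. GCSAM, a signalling adaptor of germinal centre cells, was at least 12.1-fold lower. SERPINA9, a serpin of the germinal centre, read 4.41, 4.47 and 4.54 in SUDHL2 and 8.12, 7.83 and 8.73 in SUDHL6, at least 7.42-fold lower (adjusted p = 5.8e-19). MYBL1, a transcription factor of dividing germinal centre cells, was detected in both lines and 5.78-fold lower in SUDHL2 (-2.53 ± 0.19, adjusted p = 3.6e-15). BCL6, the repressor that holds the germinal centre state, was well above background in both lines. Its levels were 10.24, 10.34 and 10.28 in SUDHL2 and 11.11, 11.22 and 11.15 in SUDHL6 (-0.88 ± 0.18, 1.84-fold, adjusted p = 6.2e-05). LMO2, a transcriptional cofactor that usually marks the germinal centre type, went the other way, with 11.6, 11.62 and 11.53 in SUDHL2 and 9.61, 9.42 and 9.7 in SUDHL6. It was 4.01-fold higher in SUDHL2 (2.01 ± 0.13, adjusted p = 6.4e-17), and DENND3 (1.66) and NANS (0.37) were the other members higher there.

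Of 17 activated B-cell genes tested, 12 were higher and 3 lower in SUDHL2 (median 1.24). CD44, the hyaluronan receptor, read 11.84, 12.01 and 11.87 in SUDHL2 and 5.59, 5.33 and 4.67 in SUDHL6. The fitted difference was 104-fold, with CD44 detected on only 1 of the 3 SUDHL6 arrays (6.70 ± 0.19, adjusted p = 1.4e-29). Dimmer probes of CD44 were higher in SUDHL2 by 1.26 and 3.92. BATF, an AP-1 factor of activated lymphocytes, was 10-fold higher in SUDHL2 (3.32 ± 0.21, adjusted p = 1.6e-17), and the phosphatase PTPN1 had a difference of 3.02. FOXP1, a transcription factor of the activated type, was higher by 0.74 ± 0.16 (adjusted p = 0.00011). Of 5 detected probes of FOXP1, 3 were called higher, and others at 0.25 and -0.07 were not called. Against the direction of the list, CCND2, a G1 cyclin, was at least 2.14-fold lower in SUDHL2. Another CCND2 probe had a difference of -0.37 and was not called (limma adjusted p = 0.08 over probes). The kinase PIM1 (-1.03) and the adaptor BLNK (-0.72) were lower too. PIM2, the related kinase, was higher by 2.46.

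Genes of the plasma cell programme were split. PRDM1 encodes BLIMP1, the repressor that ends the B-cell programme. Its levels were 10.2, 10.32 and 10.35 in SUDHL2 and 4.86, 4.65 and 4.35 in SUDHL6, where no array detected it. All SUDHL2 arrays were high and all SUDHL6 arrays at background, at least 30-fold apart on this probe (adjusted p = 9.5e-26). Dimmer probes of PRDM1 were higher in SUDHL2 by 0.72, 1.03 and 2.4. XBP1, the factor that expands the secretory apparatus, was 7.78-fold higher in SUDHL2, with 11.18, 11.08 and 11.08 against 8.16, 8.12 and 8.19 (2.96 ± 0.11, adjusted p = 1.2e-25). TNFRSF17, the BCMA receptor of plasma cells, had the opposite order: 5.84, 5.61 and 5.64 in SUDHL2 and 10.02, 9.83 and 9.77 in SUDHL6. It was 18.1-fold lower in SUDHL2 (-4.17 ± 0.15, adjusted p = 1.1e-25). CD27 (-2.13), a marker of memory and plasma cells, and JCHAIN (-1.78), the joining chain of secreted immunoglobulin, were also lower. In all, 9 of 17 tested members were higher and 4 lower (median 0.54). SDC1, the plasma cell antigen CD138, was not called (-0.39).

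Factors of B-cell identity moved both ways, with 4 higher and 7 lower of 16 (median -0.12). BACH2, a repressor that opposes PRDM1, was detected only in SUDHL6 and was at least 8.3-fold lower in SUDHL2. TCF3, the E2A factor, was lower by 2.51 ± 0.14 and ID3, an inhibitor of E proteins, by 2.60 ± 0.13. TCF4, a related E protein, was higher in SUDHL2 by 3.82 ± 0.18. POU2AF1 (-0.06), SPIB (-0.19) and IKZF3 (-0.06) were not called.

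MicroRNA miR-155 is cut from the transcript of MIR155HG, is induced in activated B cells and is known to be abundant in the activated type. The arrays measured the host transcript and not the microRNA, whose mature sequence is shown because the host gene was among the genes followed here. It is taken from RefSeq (GRCh38.p14, chr21:25573983-25574006, plus strand), with the seed, bases 2 to 8, in capitals.
hsa-miR-155-5p: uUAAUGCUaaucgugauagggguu
MIR155HG read 10.98, 10.86 and 11.22 in SUDHL2 and 8.03, 7.82 and 8.13 in SUDHL6. Each SUDHL2 array was above each SUDHL6 array, by 8.14-fold on average (3.03 ± 0.18, adjusted p = 3.7e-18).

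Antigen presentation genes of HLA class II were lower in SUDHL2 throughout. Class II molecules present peptides to helper T cells, CD74 and the HLA-DM and HLA-DO proteins guide their loading, and CIITA is the coactivator that switches the genes on. All 11 tested members were lower in SUDHL2 (median -3.68). HLA-DRA, the shared alpha chain of HLA-DR, read 9.08, 8.98 and 8.91 in SUDHL2 and 13.31, 13.4 and 13.23 in SUDHL6. It was still detected on all SUDHL2 arrays but 20-fold lower there (-4.32 ± 0.14, adjusted p = 6e-27). HLA-DRB1 read 4.76, 4.47 and 5.06 in SUDHL2, below detection, and 11.18, 11.06 and 11.04 in SUDHL6, at least 54-fold apart (adjusted p = 2.4e-31). The chaperone gene CD74 was 5.06-fold lower (-2.34 ± 0.15, adjusted p = 7.8e-17). HLA-DMA was 10.3-fold lower, with 8.91, 8.91 and 8.79 in SUDHL2 and 12.42, 12.22 and 12.06 in SUDHL6. CIITA was dim in both lines, with 5.06, 4.77 and 4.8 in SUDHL2, all below detection, and 6.11, 6.02 and 6.19 in SUDHL6 (at least 1.7-fold lower, adjusted p = 4e-07). HLA-DR beta genes are polymorphic and alike, and a mismatch between a probe and the alleles of a line was not tested.

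Class II promoters carry an upstream Y box that is bound by NF-Y. The promoters of 2 members are shown as examples, and all 11 tested members were lower in SUDHL2. Both windows run from 250 bases before to 50 bases after the gene start and are taken from RefSeq (GRCh38.p14). HLA-DRB1 lies at chr6:32589799-32590098 and HLA-DMA at chr6:32953048-32953347, both on the minus strand. Capitals mark GATTGG, which holds the reverse complement of the CCAAT box.
HLA-DRB1: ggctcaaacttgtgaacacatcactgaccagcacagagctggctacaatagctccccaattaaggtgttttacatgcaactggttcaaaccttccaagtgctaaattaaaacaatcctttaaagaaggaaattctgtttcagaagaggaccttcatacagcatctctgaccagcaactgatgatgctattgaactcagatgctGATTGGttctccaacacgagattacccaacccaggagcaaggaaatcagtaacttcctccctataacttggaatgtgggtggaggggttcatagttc
HLA-DMA: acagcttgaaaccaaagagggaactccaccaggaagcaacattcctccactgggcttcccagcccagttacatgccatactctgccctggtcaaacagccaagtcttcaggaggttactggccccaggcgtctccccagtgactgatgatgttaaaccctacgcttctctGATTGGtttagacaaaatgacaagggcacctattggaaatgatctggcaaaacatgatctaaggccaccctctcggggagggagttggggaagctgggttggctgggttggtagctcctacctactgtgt
GATTGG was searched on both strands, where it reads CCAATC on the other, and overlaps with other motifs were not examined. Of the tested class II genes, 9 had a promoter sequence, and 7 of these held the motif in at least 1 window. Counted per window and not per gene, 15.1% of 35116 promoters of the same length held it. The windows of CD74 (-2.34) and HLA-DPA1 (-4.92) lacked the motif, and both genes were lower in SUDHL2 as well. A match describes the letters of the window and no binding was measured here.

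**Figure D2:**
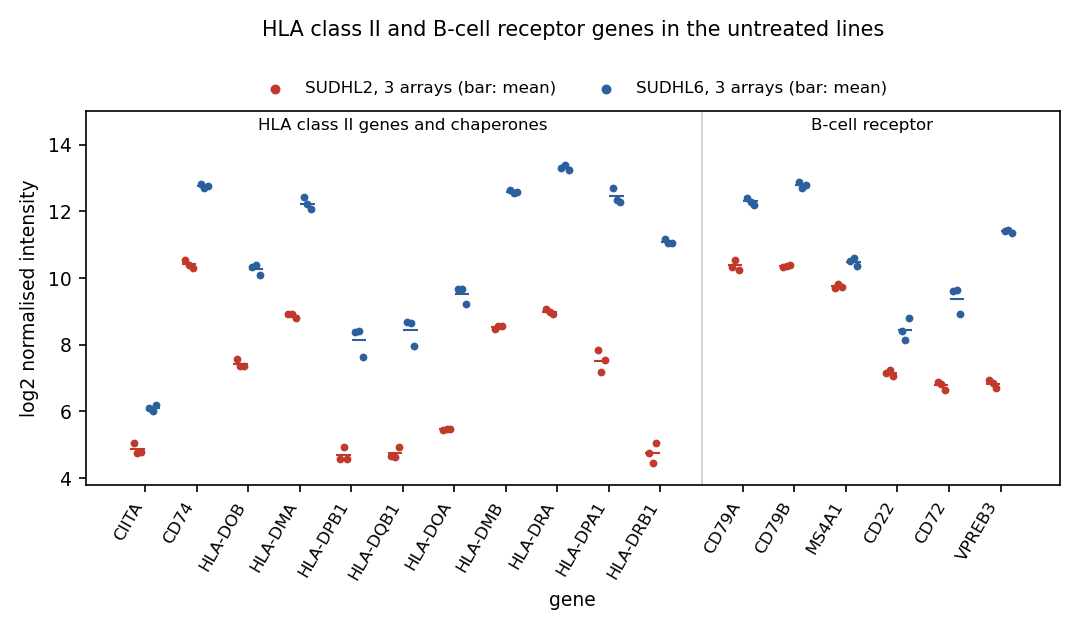
Log2 normalised intensity of the HLA class II genes and of 6 genes of the B-cell receptor complex and its surface partners, on 3 untreated arrays of SUDHL2 (red) and 3 of SUDHL6 (blue), with bars at the means. The 6 receptor genes were picked from the 14 of 20 called lower, and CR2 (1.42), which was higher, is not drawn. HLA-DRB1 (-6.33) has the widest gap shown and MS4A1 (-0.74) the narrowest.

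Of 13 genes of HLA class I and peptide loading, 6 were higher and 5 lower (median 0.26). The immunoproteasome subunit PSMB9 (1.78) and the peptide transporters TAP2 (1.06) and TAP1 (0.91) were higher in SUDHL2. HLA-E (-2.35), HLA-B (-1.48) and HLA-F (-1.32) were lower, and HLA-C was not called (-0.19). With slide as a fixed block, 3 were called lower.

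The B-cell receptor signals through CD79A and CD79B to the kinases SYK and BTK. Of 20 receptor and coreceptor genes tested, 14 were lower and 3 higher in SUDHL2 (median -0.72). CD79B read 10.33, 10.35 and 10.39 in SUDHL2 and 12.88, 12.71 and 12.8 in SUDHL6 (5.44-fold lower, -2.44 ± 0.09, adjusted p = 1e-24). CD79A was 3.79-fold lower (-1.92 ± 0.11, adjusted p = 2e-18). Both stayed well above background in SUDHL2. VPREB3, a VpreB family protein of B cells, was 24-fold lower, with 6.95, 6.84 and 6.7 against 11.42, 11.45 and 11.36 (adjusted p = 2.2e-22). The coreceptor CD72 (-2.61), the kinase BLK (-1.85), the inhibitory lectin CD22 (-1.31) and SYK (-0.73) were lower as well. MS4A1, the antigen CD20, was lower by 0.74 ± 0.16 (adjusted p = 0.00015). The kinase PRKCB (1.56), the complement receptor CR2 (1.42) and the signalling adaptor BCL10 (1.31) were higher, whereas BTK (0.11) and LYN (-0.20) were not called.

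NF-kB factors drive survival and inflammatory genes in activated B cells. Of 22 targets tested, 13 were higher and 4 lower in SUDHL2 (median 0.75). NFKBIZ, an inducible nuclear IκB protein, read 11.4, 11.58 and 11.54 in SUDHL2 and 8.27, 8.41 and 8.41 in SUDHL6, 8.83-fold apart (3.14 ± 0.16, adjusted p = 6.9e-21). Of 2 detected probes of NFKBIZ, 1 was called higher. EBI3, a cytokine subunit, was at least 8.61-fold higher and IL6 at least 5.08-fold higher, neither being detected on any SUDHL6 array. The survival genes BCL2A1 (3.47) and CFLAR (3.49) and the inhibitor NFKBIA (2.27) were higher as well. TNFAIP3, the ubiquitin-editing brake on NF-kB known as A20, read 7.44, 7.53 and 7.35 against 6.52, 6.26 and 6.47 (1.03 ± 0.27, adjusted p = 0.0011). Not all targets followed: TNF was 2.44-fold lower, at 7.84, 7.72 and 7.69 in SUDHL2 and 8.99, 8.88 and 9.25 in SUDHL6 (-1.29 ± 0.16, adjusted p = 2.6e-09). The inhibitor NFKBIE (-1.75), the activation marker CD83 (-1.36) and the subunit RELB (-0.72) were lower too.

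MYD88 itself did not separate the lines, with 7.55, 7.49 and 7.49 in SUDHL2 and 7.54, 7.55 and 7.65 in SUDHL6, values that overlap (-0.07 ± 0.12, adjusted p = 0.65). Of 19 genes of the Toll-like receptor and MYD88 pathway, 5 were higher and 8 lower (median -0.13). IRAK3, a kinase-like brake on the pathway, was at least 6.11-fold higher in SUDHL2, and the kinase IRAK1 was higher by 1.00. LY86, the partner of the receptor CD180, was at least 33-fold lower in SUDHL2, and the receptors TLR10 (-1.91), TLR1 (-1.71) and TLR6 (-1.43) were lower. IRF7, a factor downstream of the pathway, was lower by 1.96 ± 0.14 (adjusted p = 3.5e-16), but on the panel arrays it was higher in SU-DHL-2 by 1.02.

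Cytokine signalling through JAK and STAT proteins had 13 genes higher and 5 lower of 24 (median 0.64). STAT3, which carries the signals of IL6 and IL10, read 10.59, 10.62 and 10.81 in SUDHL2 and 6.88, 7.42 and 6.91 in SUDHL6. It was 12.1-fold higher in SUDHL2 (3.60 ± 0.19, adjusted p = 5.2e-20). The receptor chain IL2RB (3.77), STAT5A (2.55) and JAK1 (1.00) were higher, and the cytokine subunit IL12A was at least 10.6-fold higher. IL4R (-1.70), the receptor of IL4, and the feedback inhibitor SOCS1 (-0.81) were lower. IL10 was well above background in both lines, at 12.02, 12.13 and 12.09 against 12.29, 12.35 and 12.5, and was not called (-0.30 ± 0.15, adjusted p = 0.095). A dimmer probe of IL10 was higher in SUDHL2 by 0.90, so its direction is uncertain.

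**Figure D3:**
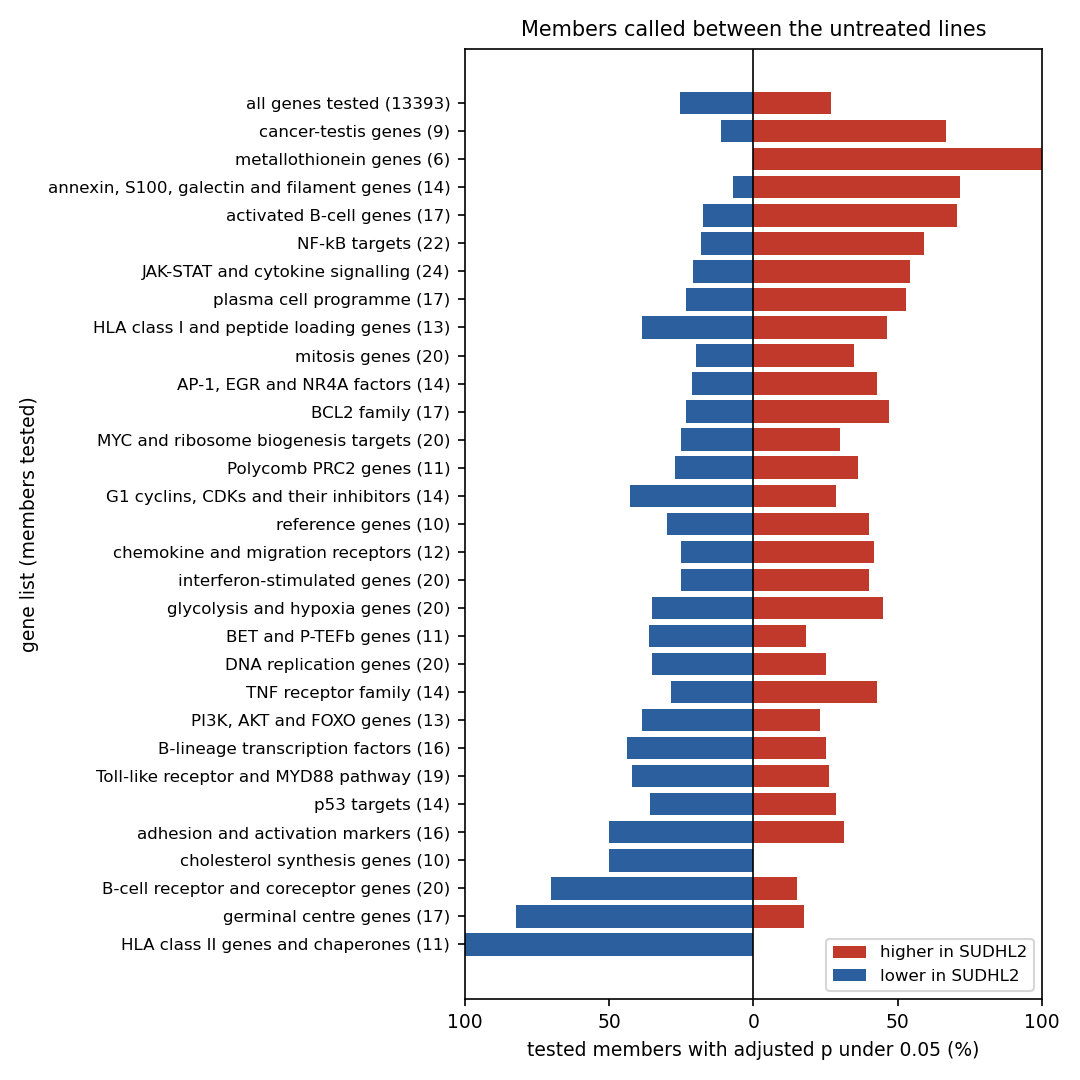
Percent of the tested members of each gene list that limma called higher (red, right) or lower (blue, left) in untreated SUDHL2 than in untreated SUDHL6, with the number of members tested in brackets and all genes tested at the top. All genes had 27% higher and 25.4% lower. Among the lists drawn, which leave out the Lymph2Cx sets and the cell type markers, all HLA class II genes (11 of 11) were lower and all metallothionein genes (6 of 6) higher.

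Among the BCL2 family, which sets the threshold of apoptosis, 8 genes were higher and 4 lower in SUDHL2 of 17 (median 0.15). BCL2 on the brightest probe read 8.64, 8.62 and 8.57 in SUDHL2 and 5.56, 5.7 and 5.12 in SUDHL6 (3.15 ± 0.18, adjusted p = 4.7e-19). A further BCL2 probe gave 2.85, but another had a difference of -0.73 (adjusted p = 0.00015 over probes), so the direction of BCL2 is uncertain. BID (3.67), which links death receptors to mitochondria, and the BH3-only proteins PMAIP1 (1.91) and BCL2L11 (1.89), which promote cell death, were higher. HRK was at least 7.6-fold and BIK at least 3.33-fold lower, both being further BH3-only proteins, and MCL1 (-0.81), a survival protein, was lower.

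Genes of growth and of the cell cycle had members called both ways, with 55 to 71.4% of each list called beside 52.5% of all genes. MYC was well above background in both lines, at 10.22, 10.22 and 10.27 in SUDHL2 and 10.56, 10.61 and 10.42 in SUDHL6, and was not called (-0.29 ± 0.22, adjusted p = 0.29). Its arrays did not overlap, and the second probe of MYC was lower in SUDHL2 by 0.49 (adjusted p = 0.0086 over probes). Between the DMSO arrays the difference of MYC was -1.75 at 1 h, -1.72 at 2 h and 0.59 at 12 h (limma adjusted p = 6.7e-09, 9.6e-09 and 0.024). Of 20 MYC and ribosome biogenesis targets, 6 were higher and 5 lower between untreated lines (median 0.14), SRM (1.33), a polyamine enzyme, and RRP12 (-1.12) being the widest. DNA replication genes had 5 higher and 7 lower of 20 (median 0), with CDC45 (1.29) higher and the helicase subunits MCM6 (-0.93) and MCM5 (-0.85) lower. Mitosis genes had 7 higher and 4 lower of 20 (median 0.25), CCNB2 (1.01) and TTK (-0.84) among them. The mitosis genes called higher were 4 without SUDHL2 replicate 1 or with slide as a fixed block. Among G1 cyclins, kinases and inhibitors, 4 were higher and 6 lower of 14. CCNE1 (1.36) was higher, and CDKN2A, the locus of p16 and ARF, was lower by 1.10 ± 0.15 (adjusted p = 5.1e-08). Among p53 targets, 4 were higher and 5 lower of 14 (median -0.26), RRM2B (-2.64) and TP53INP1 (-2.61) by the most.

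EZH2, the Polycomb enzyme, was not called on its brightest probe, with 9.17, 9.16 and 8.98 in SUDHL2 and 8.97, 8.95 and 9.08 in SUDHL6 (0.11 ± 0.13, adjusted p = 0.52). Its other probes were higher in SUDHL2, by 0.77 and 0.38. Of 11 genes of Polycomb complex PRC2, 4 were higher and 3 lower, which is 63.6% called beside 52.5% of all genes. The histone-binding subunit RBBP4 (-1.94) and the cofactor JARID2 (-1.19) differed by the most. Of 3 detected probes of RBBP4, 1 was called lower. Without SUDHL2 replicate 3, 2 of the PRC2 genes were called higher. Among 11 genes of the BET proteins and of P-TEFb, the elongation kinase they recruit, 2 were higher and 4 lower (median 0). That is 54.5% called, close to the share of all genes. The number higher was 1 without SUDHL2 replicate 2 and 4 in a fit of the 6 untreated arrays alone, and the number lower was 2 without SUDHL6 replicate 2. BRD2 was lower in SUDHL2 by 0.65, BRD3 was not called (0.37), and CDK9, the kinase of P-TEFb, was not called (-0.07). HEXIM1, the inhibitor of P-TEFb, was near background in both lines. CCNT2, a cyclin partner of CDK9, was lower by 1.25 on its brightest probe and higher on another, so it is uncertain.

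Some genes of movement and cell contact differed widely, and 66.7 to 81.2% of each list was called, beside 52.5% of all genes. GPR183, the oxysterol receptor that places B cells outside the germinal centre, read 9.89, 9.9 and 10.08 in SUDHL2 and 5.65, 5.83 and 4.92 in SUDHL6 (22.5-fold higher, 4.49 ± 0.31, adjusted p = 2.2e-16). CCR7, the homing receptor to lymph node T zones, was higher by 2.10 ± 0.45 (adjusted p = 0.00012), its levels being 9.42, 9.42 and 9.54 against 7.94, 7.83 and 6.32. The lowest SUDHL6 array of CCR7 stood well below the other two. CXCR4, which keeps cells in the germinal centre dark zone, was 13.3-fold lower in SUDHL2 (-3.73 ± 0.24, adjusted p = 4.7e-17). In all, 5 of 12 migration receptors were higher and 3 lower. Of 14 TNF receptor genes, 6 were higher and 4 lower: TNFRSF1B was at least 17.4-fold higher, and TNFRSF13C (-2.87), the BAFF receptor, was lower. Of 16 adhesion and activation markers, 5 were higher and 8 lower. ITGB1 (2.06) was higher, and ITGB7 (-2.85) and SLAMF1 (at least 10.2-fold) were lower.

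Calcium-binding and cytoskeletal genes were mostly higher in SUDHL2, with 10 of 14 annexin, S100, galectin and filament genes higher and 1 lower (median 1.56), or 3 lower with 75th percentile scaling. ANXA2 read 11.76, 11.76 and 11.73 in SUDHL2 and 5.77, 6 and 5.47 in SUDHL6, 64.2-fold apart (6.0 ± 0.20, adjusted p = 3.1e-27). S100A4 was 31.2-fold higher (4.96 ± 0.20, adjusted p = 2.7e-24). VIM, the intermediate filament vimentin, was the member with the opposite order: 7.67, 7.4 and 7.4 in SUDHL2 and 11.46, 11.46 and 11.32 in SUDHL6, 15.2-fold lower (-3.93 ± 0.11, adjusted p = 1.4e-29). All 6 tested metallothionein genes, whose products bind zinc and copper, were higher (median 1.90), MT2A by 4.0 ± 0.29 (adjusted p = 1e-15). Of 19 cancer-testis genes listed, which are normally silent outside the germ line, 8 were not detected and 2 had no probe. Of the 9 tested, 6 were higher and 1 lower in SUDHL2 (median 3.03). No untreated SUDHL6 array detected any of the 6 higher members. The detection filter can admit such genes through SUDHL2 alone, so the count and the median depend on it. The lower call was lost without SUDHL2 replicate 1 or 3, without SUDHL6 replicate 1 or 3, and with slide as a fixed block. MAGEA1 was at least 31.7-fold, PAGE5 at least 18.1-fold and MAGEA6 at least 9.24-fold higher, and none was detected on a SUDHL6 array. Metallothionein and MAGEA family members are close in sequence, and cross-hybridisation among their probes was not tested.

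In the lists of this paragraph, 50% (cholesterol synthesis) to 80% (glycolysis and hypoxia) of members were called, beside 52.5% of all genes. Of 14 AP-1, EGR and NR4A factors, 6 were higher and 3 lower (median 0.25), ATF3 (3.26) and JUN (2.37) being higher and EGR1 (-3.06) lower. Of 20 interferon-stimulated genes, 8 were higher and 5 lower (median 0.06), IFITM1 (3.76) and ISG15 (1.92) being higher and OAS1 (-1.02) lower. Of 13 PI3K, AKT and FOXO genes, 3 were higher and 5 lower. TCL1B, a coactivator of AKT, was 32.9-fold lower in SUDHL2 (-5.04 ± 0.21, adjusted p = 8.2e-24), whereas its neighbour TCL1A was not called (-0.11). Glycolysis and hypoxia genes had 9 higher and 7 lower of 20, and 5 higher with 75th percentile scaling. BNIP3, a hypoxia-induced mitophagy receptor, was 56.9-fold lower (-5.83 ± 0.14, adjusted p = 8.4e-32), and the glucose transporter SLC2A3 31.5-fold lower. Cholesterol synthesis genes had 5 lower and none higher of 10 (median -0.35), HMGCS1 (-1.42) by the most, and 1 was called higher without SUDHL2 replicate 1 or with 75th percentile scaling. Of 10 reference genes, 4 were higher and 3 lower (median 0.10), from PGK1 (0.93) to GUSB (-0.90). Without SUDHL6 replicate 1, 2 of them were called higher, and with 75th percentile scaling 2 were higher and 5 lower.

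Several of the genes of largest difference lay outside these lists. TPM2, a tropomyosin of muscle and stroma, read 11.89, 11.97 and 11.93 in SUDHL2 and 5.66, 5.68 and 5.27 in SUDHL6 (84-fold, 6.39 ± 0.13, adjusted p = 2e-34). ACTG2, a smooth muscle actin, was at least 124-fold higher and FEZ1, a neuronal transport adaptor, at least 78.1-fold higher, with no SUDHL6 array detecting either. GTSF1, a germ-line gene of transposon silencing, was at least 73.4-fold higher, and SPIC, an ETS factor related to PU.1, at least 48.2-fold. GSTO1 (5.11), a glutathione transferase, COBLL1 (5.04) and SGPP2 (4.49), a sphingosine-1-phosphate phosphatase, followed. Of 2 detected probes of SGPP2, 1 was called higher. TUBB2B, a beta-tubulin, was the lowest in SUDHL2 of the genes detected in both lines, at 5.68, 5.54 and 5.7 against 12.46, 12.36 and 12.4 (109-fold, -6.76 ± 0.11, adjusted p = 1.2e-37). EVL, an actin regulator, was 88.4-fold lower, PHGDH, the first enzyme of serine synthesis, 80.6-fold, and CD24, a B-cell surface glycoprotein, 36.3-fold. APOD, a lipid carrier, was at least 46-fold, DEPTOR, an inhibitor of mTOR, at least 40.1-fold and UCHL1, a deubiquitinase, at least 34.3-fold lower.

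Markers of other cell types were mostly at background. In bulk RNA, fewer cells of a type and less RNA per cell cannot be told apart. Of 18 T and NK cell markers with a probe, 13 were detected in neither line, as were 10 of 16 myeloid and 11 of 15 stromal and epithelial markers. The summed normalised intensity, on the linear scale, of the T and NK markers was 614 to 617 in SUDHL2 and 584 to 617 in SUDHL6. It was 1150 to 1170 against 1530 to 1590 for the myeloid markers, and 941 to 967 against 418 to 476 for the stromal and epithelial ones, beside 3570 to 3870 against 13600 to 14800 for the B-cell markers. EPCAM (at least 5.43-fold), ACTA2 (2.67) and DCN (at least 1.6-fold) were higher in SUDHL2, beside the smooth muscle genes TPM2 and ACTG2. KRT18 was detected in SUDHL2 only but did not pass the detection filter. Among T and NK markers, CD3D (at least 1.36-fold) and GZMB (0.96) were higher and TBX21 (-0.50) lower. GZMB was near background, being detected on 1 SUDHL2 array and no SUDHL6 array. Among myeloid markers, C1QB (at least 1.73-fold) was higher, and FCGR3A (-0.86), CD68 (-0.76) and S100A8 (-0.48) were lower. S100A8 was near background too, being detected on 1 SUDHL6 array and no SUDHL2 array. On the panel arrays CD68 was higher in SU-DHL-2 by 0.38. CDH1, KRT8, KRT19, COL1A1, COL1A2 and COL3A1 were at background in both lines. PAX5, a defining B-cell factor, was not detected in either line on its single probe, whereas CD79A, CD79B, MS4A1 and CD22 were present in both. A PAX5 probe that does not report the gene cannot be told apart from absence of its RNA. A part of other cells in the results was not tested.

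The line difference was also read between the DMSO arrays of the lines, which share the fit, its spread and the detection filter with the untreated arrays. Of the 7026 called genes 79.5% at 1 h, 77.5% at 2 h and 79% at 12 h were called the same way, beside 51.2%, 52.7% and 51.5% of all genes called at those times. Of the 2488 genes called at 2-fold or more, 97.5%, 96.2% and 97.1% were called the same way, and 6, 5 and 3 the opposite way. The difference itself changed between untreated and DMSO arrays in 198 genes (1.48%) at 1 h, 904 (6.75%) at 2 h and 806 (6.02%) at 12 h. MIR155HG showed such a range, with 3.03 untreated, 1.20 and 0.36 with DMSO at 1 and 2 h, and 3.19 at 12 h. HLA-DRA stayed lower in SUDHL2, at -4.32, -4.42, -4.70 and -6.20, with its widest difference at 12 h.

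On the single panel arrays, which give no test, 86.5% of the called genes and 95.9% of those called at 2-fold or more had the same direction, beside 55.6% of genes that were not called. The differences correlated at 0.825 across genes, which are not independent replicates. CD44 (7.04), PRDM1 (4.11), STAT3 (2.91), HLA-DRA (-6.29) and MME (-3.56) kept their direction there. TNF did not, being higher in SU-DHL-2 by 0.62, and PIM1 (0.02), CDKN2A (0.05) and SRM (0) were even. HLA-E (-0.63) and HRK (-0.93) kept their direction with a smaller gap. SPP1, at least 29.6-fold higher in untreated SUDHL2, differed by 1.20 in the panel. Slide 6 held 1 array of each line. Both are among the 6 arrays that made the calls, so their direction is no independent check: it was the same for 99.7% of the called genes. Of 172 named genes, 76 differed from the full value by more than the spread between replicates there.

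**Figure D4:**
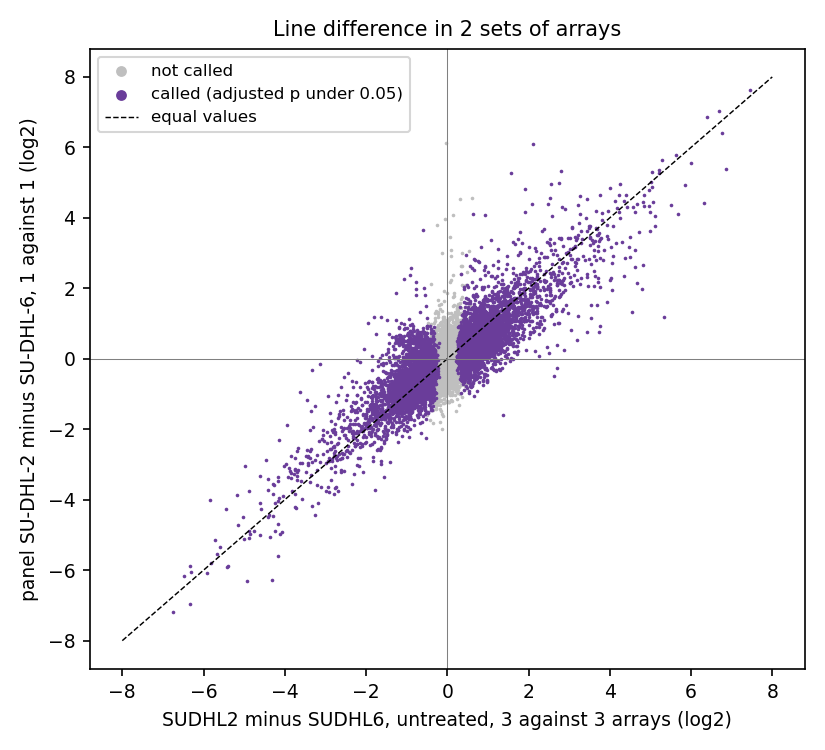
Each point is a gene, with the difference between untreated SUDHL2 and SUDHL6 (3 against 3 arrays, log2) on the horizontal axis and that between the single panel arrays SU-DHL-2 and SU-DHL-6 on the vertical axis. Called genes are purple and genes not called grey, and the dashed line marks equal values. Of the genes called at 2-fold or more, 95.9% lie on the same side of 0 in both.

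Calls were not spread evenly over the autosomes. On chromosome 6, 43.9% of 740 genes were lower in SUDHL2 and 15.4% higher, with a median difference of -0.24, and the panel pair gave the same median of -0.24. On chromosome 13, 47.5% of 236 genes were higher and 13.1% lower (median 0.30, panel 0.31), and on chromosome 15, 43.2% of 431 were higher and 13% lower (median 0.23, panel 0.33). Chromosomes 4 (39.7% higher, median 0.17) and 11 (37.6% higher, median 0.16) leaned the same way. Chromosome 22 had 41.9% lower (median -0.16, panel -0.24), and chromosomes 10, 14 and 19 had 37.5%, 34.7% and 34.6% lower. The panel pair is another array of each line and not another line, and DNA copy number was not measured.

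**Figure D5:**
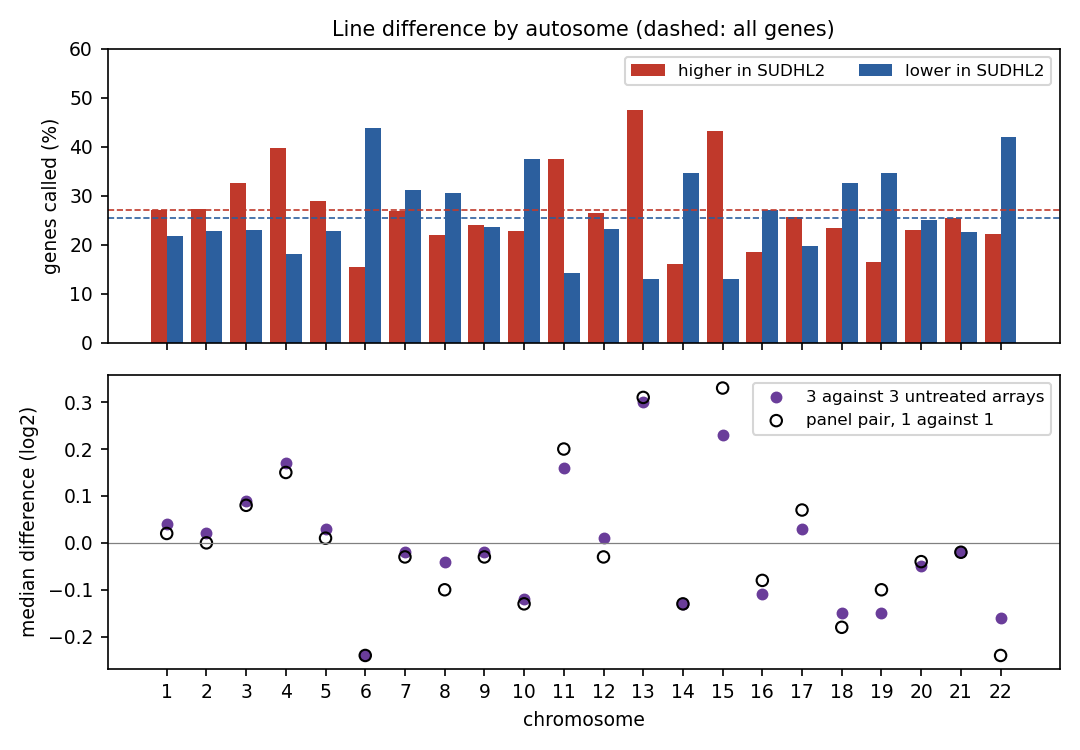
Top: percent of tested genes of each autosome that limma called higher (red) or lower (blue) in untreated SUDHL2, with dashed lines at 27% and 25.4% for all genes. Bottom: median difference per autosome in the 3 against 3 untreated arrays (filled) and the single panel pair (open), log2. Chromosomes 13 and 15 lie highest and chromosome 6 lowest.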

How the data were processed

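Total RNA of lymphoma lines was hybridised to Illumina single-channel arrays. The deposited table holds linear intensity per probe, without background subtraction or scaling between arrays. A further table holds log2 values that the authors made by steps no label states, and it served as an alternative. Of 47231 probes, 30113 carried 1 symbol. A probe was kept when it stood above a background mirrored around each array's lower mode (p of 0.01 on at least 3 of 42 arrays), which left 26037 probes and 13393 genes, each read from its brightest probe. The size of a difference is that of this probe, and other probes of a gene can differ from it. Of 2304 called genes with more than 1 detected probe, 96 had a probe called the opposite way. Signals were corrected with normexp (offset 16), quantile normalised over 64 arrays and put on the log2 scale. limma 3.58.1 in R 4.3.3 fitted a mean for each of 14 groups of 3 arrays of SUDHL2 and SUDHL6 (lmFit, eBayes with an intensity trend, 28 residual degrees of freedom before moderation). Tests were 2-sided with Benjamini-Hochberg adjustment over all genes at 0.05. Exact permutation of 3 against 3 arrays cannot go below p = 0.1, so the model across genes was used.

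Named genes were the 12 of largest difference in each direction detected in both lines, the 8 of largest bound in each direction detected in a single line, a set of B-cell lymphoma genes, and up to 4 called members of each list together with members whose role is described. The members, the gene lists and the rule were chosen with earlier results of these data known. Lists are described by counts and medians, without a set test. Their counts stand beside 27% of all genes called higher and 25.4% called lower. Symbols came from the platform annotation, and sequences from RefSeq. Genes of the lists without a probe of that symbol were not analysed here. Y-linked genes and the genes of X inactivation are not named, while other X-linked genes are.

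Alternatives varied the background correction, scaling, detection filter, probe choice, slide and replicate blocks, and left out each array in turn.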

Additional observations from a re-analysis of the deposited data

Results flagged for a closer look

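Probes that carry no single gene symbol were outside the comparison. Of 7833 such probes kept, 2477 (31.6%) were called between the untreated lines, and 748 differed by at least 2-fold, 316 higher and 432 lower in SUDHL2.

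Some genes called at 2-fold or more between untreated lines were called the opposite way between the same lines with DMSO, and the change in the line difference itself passed limma's adjusted threshold. At 1 h the change (DMSO minus untreated, log2) was -2.67 for AEN, a p53-induced nuclease, -2.31 for IER5, -1.83 for STMN3, -2.21 for TNFAIP3, -1.87 for the death receptor TNFRSF10B and 2.07 for RGS2, a regulator of G-protein signals. AEN went from 7.98 to 10.63 in SUDHL6 while it stood at 10.08 and 10.05 in SUDHL2. RGS2 went from 9.33 to 11.06 in SUDHL2 and from 10.92 to 10.57 in SUDHL6. At 2 h the change was -2.43 for IRF4, which went from 9.19 to 8.26 in SUDHL2 and from 7.89 to 9.39 in SUDHL6. It was -1.72 for STMN3, -2.27 for TNFAIP3, -2.37 for TNFRSF10B and 2.3 for TXNIP, an inhibitor of thioredoxin. At 12 h it was 1.8 for CD83, 1.53 for PIM1 and 2.74 for PNOC, a neuropeptide precursor that went from 5.51 to 7.89 in SUDHL2 and from 7.17 to 6.82 in SUDHL6. These genes were selected for the opposite calls, and the same untreated arrays enter all 3 hours.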

How the results depend on the processing

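Counts of genes called higher or lower stayed within 1.5 times of the main counts under all 20 alternatives. The counts at 2-fold or more were smaller without background correction (748 higher, 650 lower) and with the authors' deposited log2 values (688 higher, 583 lower); an offset of 50 gave 945 and 808. Scaling to the 75th percentile moved the median of all genes to -0.10 and gave 3508 higher and 3900 lower. Leaving out 1 array gave 3328 to 3431 genes higher and 3126 to 3196 lower, and 1311 to 1342 and 1161 to 1194 at 2-fold or more. Replicate numbers did not pair the arrays (same-number correlations of deviations -0.08, 0.02 and -0.07), and the replicate block gave 3665 higher and 3477 lower. Of 172 named genes, IL10 turned to 0.30 with the mean of its probes (adjusted p = 0.039). CCNT2 lost its call with the mean of probes, HEXIM2, S100A8 and PPIA with slide as a fixed block, HEXIM2 also without SUDHL6 replicate 2 and S100A8 without SUDHL6 replicate 3. MYC and IL10 were called in a fit of the 6 untreated arrays alone, IL10 also with 75th percentile scaling, and EZH2 with the mean of probes. Of 1480 list counts, 28 moved by more than 1.5 times. The cause was not tested. Levels near background bound folds from below.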

Other observations

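Neighbouring genes were also described on a finer scale than the chromosome. Over 308 blocks of at least 40 tested neighbours, where the last block of a chromosome takes its remainder, the medians ran from -0.91 to 0.80. The lowest block, on chromosome 7 from PRKAR1B to PMS2, had 29 of 40 genes lower (panel median -0.59). The highest, on chromosome 15 from NRG4 to UBE2Q2P2, had 27 of 40 higher (panel median 0.58). A block of chromosome 6 from TNXA to TAPBP, which spans the class II region, had 30 of 40 lower (median -0.64, panel -0.66). That count includes class II genes already given above as lower, and the block was not described without them.

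The panel pair opposed the untreated arrays by at least 2-fold in both for 9 genes, which were chosen after their values were seen. TMEM140 (-1.06 against 2.27), STX3 (-1.25 against 1.88), IRF7 (-1.96 against 1.02), FBXO32, KLHL24, SEMA3E, MAFF and LRRFIP1 were lower in untreated SUDHL2 and higher in the panel SU-DHL-2 array, and SLC2A5 (1.37 against -1.59) the reverse.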
